A study of Mus musculus with 9 samples.

Results

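The vacuolar proton ATPase (V-ATPase) was followed through 10 of its subunit genes: Atp6v0a1, Atp6v0b, Atp6v0c, Atp6v0d1, Atp6v0e2, Atp6v1a, Atp6v1b2, Atp6v1d, Atp6v1e1 and Atp6v1h. They were read on every probe set that the array platform annotates to one of these symbols alone. That rule gave 25 of 45037 probe sets, for 9 of the 10 genes. No probe set is named for Atp6v0c alone, so the gene of the proton-carrying c subunit was not analysed here.

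RNA was measured on 9 single-colour Affymetrix Mouse 430 2.0 arrays in 3 groups of 3. The groups were laser-captured motor neurons of a SOD1-mutant mouse, laser-captured motor neurons of a wild-type mouse, and whole spinal cord of a wild-type mouse. Their labels also name ventral spinal cord as the tissue of all 9 arrays, and carry a common code, D28, that they do not explain. They state neither the SOD1 allele, nor the age or strain of the animals, nor whether the 3 arrays of a group came from separate mice, so the p-values measure the spread between arrays, which may be technical. A mutant whole cord was not part of the samples used here, so mutant motor neurons are set against wild-type cord and against wild-type motor neurons, and both cord comparisons share the same 3 cord arrays.

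The V-ATPase is a rotary pump that acidifies lysosomes, endosomes, the trans-Golgi network and synaptic vesicles. Its cytosolic V1 part hydrolyses ATP and turns a central rotor, and its membrane V0 part uses that rotation to move protons into the organelle. In neurons the resulting proton gradient drives the loading of neurotransmitter into synaptic vesicles and keeps lysosomal hydrolases active. Of the 10 genes, 5 encode V0 subunits, of which 4 were measured, and 5 encode V1 subunits.

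Many lysosomal genes, V-ATPase genes among them, have a known common regulator. Transcription factor EB, which in human cells switches on lysosomal genes, binds a palindrome whose full form is GTCACGTGAC and whose core is the E-box CACGTG. RefSeq promoter windows on GRCm38.p6, from 250 bases before to 50 bases after each gene start, were found for 8 of the 10 genes. Those of 3 genes held CACGTG, and they are printed 5′ to 3′ on the gene's strand because they are the members with the core motif. The windows lie at chr4:117887280-117887579 (minus strand) for Atp6v0b, chr8:105566015-105566314 (minus strand) for Atp6v0d1 and chr16:44139210-44139509 (minus strand) for Atp6v1a. Capitals mark CACGTG, or TCACGTGA where the motif extends to that length.
Atp6v0b: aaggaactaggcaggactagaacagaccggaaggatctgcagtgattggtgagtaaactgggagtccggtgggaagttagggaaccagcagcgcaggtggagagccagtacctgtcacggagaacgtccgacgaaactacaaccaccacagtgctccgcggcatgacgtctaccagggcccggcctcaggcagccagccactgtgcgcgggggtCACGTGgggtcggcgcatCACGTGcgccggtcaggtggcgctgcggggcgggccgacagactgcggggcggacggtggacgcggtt
Atp6v0d1: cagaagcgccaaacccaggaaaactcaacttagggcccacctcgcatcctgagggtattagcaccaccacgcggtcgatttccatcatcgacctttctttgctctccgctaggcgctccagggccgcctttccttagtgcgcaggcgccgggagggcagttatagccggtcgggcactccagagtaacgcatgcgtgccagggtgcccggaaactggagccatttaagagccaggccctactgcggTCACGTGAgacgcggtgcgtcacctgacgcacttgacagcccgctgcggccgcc
Atp6v1a: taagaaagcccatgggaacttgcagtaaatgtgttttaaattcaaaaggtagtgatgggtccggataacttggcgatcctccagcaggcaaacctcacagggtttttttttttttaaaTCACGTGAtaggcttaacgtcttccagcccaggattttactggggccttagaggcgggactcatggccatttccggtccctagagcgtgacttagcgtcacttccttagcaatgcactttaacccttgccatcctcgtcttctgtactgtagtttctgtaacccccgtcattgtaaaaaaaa

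The E-box CACGTG reads the same on both strands and lies within each of the longer forms. It was present in the windows of 37.5% of the 8 member genes and of 8.09% of all 27025 genes with a window. Among 11 other V-ATPase genes with a window it was present for 1, Atp6v0e, or 9.09%, near the share of all genes. The longer TCACGTGA was present for 2 of the 8 member genes, Atp6v0d1 and Atp6v1a, and for 1.12% of all genes. The full GTCACGTGAC was in no member window and in the windows of 0.37% of all genes. Atp6v0b held 2 copies of CACGTG, which start 36 and 18 bases before the gene start. These are matches of letters in a window and no measure of binding, and with 8 genes the shares are coarse.

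On the brightest probe set of each gene, 8 of the 9 measured subunits were higher in captured motor neurons than in whole cord, in both genotypes. The rises ran from 1.44-fold to 3.29-fold, and Atp6v0a1 was the gene that did not pass. No subunit passed the test between SOD1-mutant and wild-type motor neurons. The test was limma on log2(signal + 20.3), with Benjamini-Hochberg adjustment over 27022 probe sets and a threshold of 0.05. The brightest probe set is the one with the highest mean log2 value over the 3 groups. Of all 12983 genes tested on their brightest probe sets, 28.4% were higher and 35.3% lower in SOD1-mutant motor neurons than in cord. The same shares were 31.1% higher and 36.1% lower in wild-type motor neurons than in cord.

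**Figure D1:**
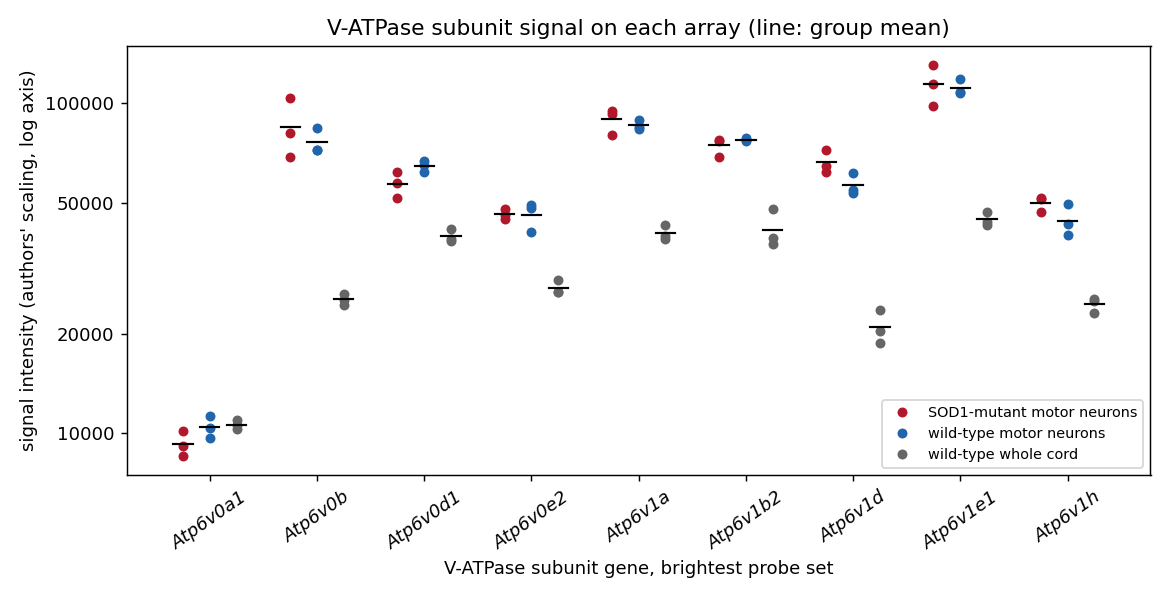
Signal intensity of the brightest probe set of each measured V-ATPase subunit on each array (log axis), with SOD1-mutant motor neurons in red, wild-type motor neurons in blue and wild-type whole cord in grey, and a line at each group mean. For 8 genes all 6 motor neuron arrays lie above the 3 cord arrays, and for Atp6v0a1 the wild-type motor neurons overlap the cord. The share of all genes that separate in this way was not counted.

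Among the membrane subunits, Atp6v0b encodes c″, a proton-carrying member of the rotor ring. Its brightest probe set, 1437013_x_at, read 68971, 103860 and 81497 in SOD1-mutant motor neurons, 72211, 72426 and 84393 in wild-type motor neurons, and 26429, 25391 and 24406 in cord. All 6 motor neuron arrays were above every cord array. The log2 difference from cord was 1.72 ± 0.15 (SE, 3.29-fold, limma adjusted p = 2.5e-05) in the mutant and 1.58 ± 0.08 (3.0-fold, adjusted p = 8.8e-07) in the wild type.

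The other probe sets of Atp6v0b did not move as far. Probe set 1416769_s_at read 28468, 25314 and 28914 in SOD1-mutant motor neurons, 38203, 28796 and 33664 in wild-type motor neurons, and 29203, 27086 and 26923 in cord. The mutant and cord arrays overlapped, and neither difference passed, at −0.01 (limma adjusted p = 0.935) in the mutant and 0.27 (limma adjusted p = 0.0528) in the wild type. Probe set 1425448_x_at was 0.27 above cord in the mutant (limma adjusted p = 0.0957) and 0.34 in the wild type (limma adjusted p = 0.0367). An x suffix marks a probe set with some probes that may match other sequences, so the 3.29-fold and 3.0-fold rises of Atp6v0b rest on a probe set of uncertain target. The brightest probe sets of Atp6ap2, Clcn3 and Clcn5, read further below, carry the same suffix and the same limit. Targets of the other probe sets were not checked either. Among them are those with an s suffix, such as the brightest of Atp6v1e1, 1449712_s_at, and of Atp6ap1, 1449622_s_at.

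Atp6v0d1 encodes the d subunit, which couples the V1 rotor to the membrane ring. Its single probe set read 51661, 61918 and 57343 in SOD1-mutant motor neurons, 62017, 66933 and 64924 in wild-type motor neurons, and 38844, 41483 and 38139 in cord. The mutant arrays lay between the wild-type motor neurons and the cord and overlapped neither. The log2 difference from cord was 0.53 ± 0.10 in the mutant (1.44-fold, limma adjusted p = 0.00236) and 0.71 ± 0.07 in the wild type (1.64-fold, limma adjusted p = 2.69e-05). After quantile normalization of all arrays the mutant difference was −0.01, with a limma adjusted p of 0.958, and that call was lost.

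Atp6v0e2 encodes a small membrane subunit of the V0 part. Its single probe set read 45770, 47846 and 44427 in SOD1-mutant motor neurons, 49042, 48247 and 40684 in wild-type motor neurons, and 26708, 29152 and 26738 in cord. The mutant and wild-type arrays overlapped, and all 6 were above the cord. The gene was 1.67-fold higher than cord in both genotypes, with log2 differences of 0.74 ± 0.09 in the mutant (limma adjusted p = 0.000194) and 0.74 ± 0.09 in the wild type (limma adjusted p = 0.000118).

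Atp6v0a1 encodes the a1 subunit, the large stator protein with the proton half-channels and the isoform found mainly in neurons. Its brightest probe set read 9103, 8533 and 10101 in SOD1-mutant motor neurons, 9627, 11241 and 10314 in wild-type motor neurons, and 10531, 10266 and 10980 in cord. The log2 difference from cord was −0.20 ± 0.11 in the mutant (limma adjusted p = 0.141) and −0.03 ± 0.09 in the wild type (limma adjusted p = 0.789). Neither passed, although the 3 mutant arrays were all below the cord arrays.

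A dimmer probe set of Atp6v0a1, 1460650_at, fell steeply. It read 151, 453 and 250 in SOD1-mutant motor neurons, 299, 190 and 193 in wild-type motor neurons, and 2733, 2206 and 2797 in cord. Among the mutant arrays, 2 of 3 were above the array's background level, and all 6 others were. It was 9.24-fold lower than cord in the mutant (log2 −3.21 ± 0.36, limma adjusted p = 0.000106) and 10.6-fold lower in the wild type (−3.41 ± 0.25, limma adjusted p = 5.31e-06). The 2 remaining probe sets of Atp6v0a1 were dim and passed in neither comparison.

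Among the V1 subunits, Atp6v1a encodes the catalytic A subunit that hydrolyses ATP. Its brightest probe set, 1422508_at, read 79997, 95121 and 92972 in SOD1-mutant motor neurons, 84521, 83662 and 89294 in wild-type motor neurons, and 39649, 42818 and 38666 in cord. The motor neuron groups overlapped and were far from the cord, at 2.21-fold in the mutant (log2 1.14 ± 0.11, limma adjusted p = 3.62e-05) and 2.13-fold in the wild type (1.09 ± 0.07, limma adjusted p = 2.45e-06). A second bright probe set, 1450634_at, read 48895, 30659 and 45145 in SOD1-mutant motor neurons, 54071, 34294 and 47296 in wild-type motor neurons, and 37872, 40915 and 36029 in cord. On it the groups overlapped and neither difference passed, at 0.09 in the mutant (limma adjusted p = 0.66) and 0.22 in the wild type (limma adjusted p = 0.236).

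Atp6v1b2 encodes the B2 subunit, the non-catalytic nucleotide-binding partner of A. Its brightest probe set, 1415814_at, read 68930, 77581 and 77038 in SOD1-mutant motor neurons, 77167, 76849 and 78331 in wild-type motor neurons, and 37501, 47771 and 38960 in cord. All 6 motor neuron arrays were above every cord array, with 1.81-fold higher signal in the mutant (log2 0.85 ± 0.12, limma adjusted p = 0.000371) and 1.88-fold higher in the wild type (0.91 ± 0.10, limma adjusted p = 4.33e-05). Probe set 1419883_s_at went the other way, with 5566, 3115 and 3368 in SOD1-mutant motor neurons, 7136, 3925 and 5387 in wild-type motor neurons, and 13431, 14565 and 15047 in cord. All 6 motor neuron arrays were below every cord array there, 3.68-fold in the mutant (−1.88 ± 0.21, limma adjusted p = 9.91e-05) and 2.69-fold in the wild type (−1.43 ± 0.19, limma adjusted p = 0.000197). The direction of Atp6v1b2 therefore depended on the probe set read.

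Atp6v1d encodes the D subunit of the central rotor shaft. Its brightest probe set, 1438993_a_at, read 62039, 72420 and 64421 in SOD1-mutant motor neurons, 53329, 61438 and 54726 in wild-type motor neurons, and 18759, 23599 and 20330 in cord. The mutant arrays were highest and the cord lowest, with no overlap, and the gene was 3.18-fold higher than cord in the mutant (log2 1.67 ± 0.12, limma adjusted p = 9.62e-06) and 2.71-fold higher in the wild type (1.44 ± 0.10, limma adjusted p = 4.19e-06). Its other probe sets rose as well, 1416951_a_at by 2.56-fold in the mutant and 2.34-fold in the wild type, and 1416952_at by 1.63-fold in the mutant and 1.94-fold in the wild type.

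Atp6v1e1 encodes the E subunit of the peripheral stalks that hold the stator. Its brightest probe set, 1449712_s_at, read 98101, 130349 and 114833 in SOD1-mutant motor neurons, 107675, 108008 and 118591 in wild-type motor neurons, and 43667, 46905 and 42766 in cord. The motor neuron groups overlapped, both far above the cord, and the gene was 2.56-fold higher than cord in the mutant (log2 1.36 ± 0.12, limma adjusted p = 3.1e-05) and 2.51-fold higher in the wild type (1.33 ± 0.07, limma adjusted p = 1.05e-06). The 3 other probe sets also read higher in motor neurons, but 1449711_at passed in the wild type alone (limma adjusted p = 0.0874 in the mutant and 0.0211 in the wild type). Probe set 1457049_at read 331, 675 and 512 in SOD1-mutant motor neurons, 694, 457 and 570 in wild-type motor neurons, and 122, 18.6 and 27.0 in cord. The cord arrays were all below the background level there, so the rise is a bound, at least 2.95-fold in the mutant (limma adjusted p = 0.00373) and at least 3.41-fold in the wild type (limma adjusted p = 0.00139).

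Atp6v1h encodes the regulatory H subunit, which is needed for ATP hydrolysis coupled to proton transport. Its brightest probe set, 1415826_at, read 51642, 46755 and 51173 in SOD1-mutant motor neurons, 49335, 39781 and 43105 in wild-type motor neurons, and 25077, 25442 and 23157 in cord. The motor neuron groups overlapped and every one of their arrays was above the cord, 2.03-fold in the mutant (log2 1.02 ± 0.10, limma adjusted p = 3.96e-05) and 1.79-fold in the wild type (0.84 ± 0.09, limma adjusted p = 6.3e-05). The dimmer 1457639_at read 1552, 2579 and 2482 in SOD1-mutant motor neurons, 1327, 2179 and 1444 in wild-type motor neurons, and 1134, 1168 and 958 in cord. It passed in the mutant (0.98, limma adjusted p = 0.00577) and missed the threshold in the wild type (0.56, limma adjusted p = 0.05002).

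Of the 25 member probe sets, 23 had a mean above the filter on dim probe sets and were tested. In SOD1-mutant motor neurons 13 were higher and 2 lower than cord, where 21.9% of all tested probe sets were higher and 40.2% lower. In wild-type motor neurons 14 were higher and 2 lower, where 24.0% of all were higher and 41.5% lower. The 2 lower ones in each were 1460650_at of Atp6v0a1 and 1419883_s_at of Atp6v1b2. Over the 23 probe sets, the log2 differences on dim ones are understated by the added 20.3.

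**Figure D2:**
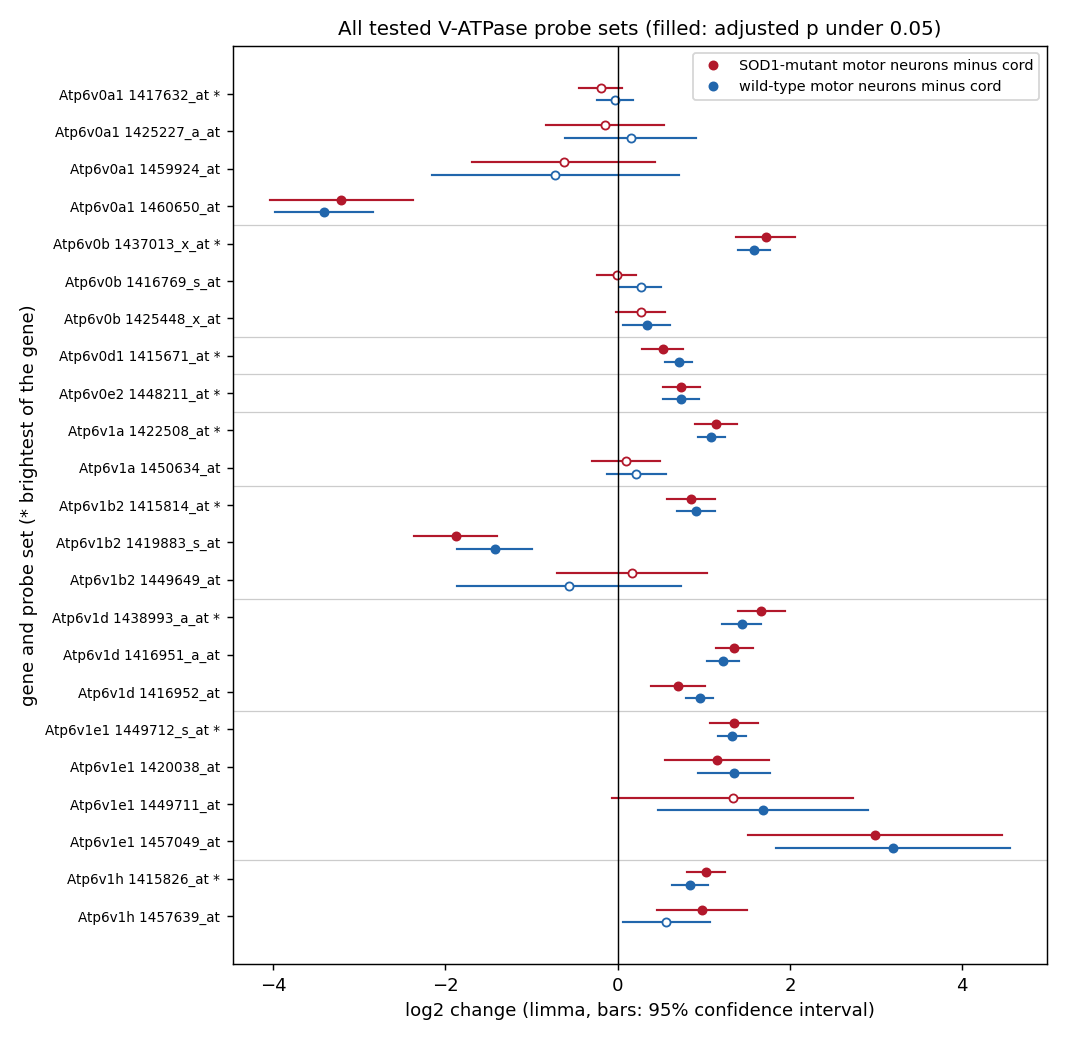
Log2 difference from wild-type cord of the 23 tested V-ATPase probe sets with 95% confidence intervals (limma), for SOD1-mutant motor neurons in red above wild-type motor neurons in blue, filled where the adjusted p was under 0.05. The probe sets of Atp6v1d and Atp6v1e1 lie right of 0, while those of Atp6v0a1, Atp6v0b, Atp6v1a and Atp6v1b2 are spread, with 1460650_at at −3.21 and −3.41.

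Bright genes as a whole read higher in motor neurons than in cord, and the members are bright. The genes at least as bright as Atp6v0a1, the dimmest member, numbered 2504, of which 66.1% were higher in SOD1-mutant motor neurons and 68.8% in wild-type motor neurons. Among the 546 genes at least as bright as the dimmest member other than Atp6v0a1, 78.9% were higher in the mutant and 81.5% in the wild type. The range of the 2504 genes holds all 9 members, and that of the 546 genes holds 8 of the 9. The range of the 546 genes was set by brightness. It leaves out Atp6v0a1, so the 8 members in it are the same 8 that rose. Whether the rise is particular to the pump was not tested. These brightness limits were set after the values were seen.

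The choice of the brightest probe set gives the motor neurons 2 of the 3 groups, and so favours probe sets that are high there. With the probe set brightest on the cord arrays in its place, a choice added after the data were seen, 7 of 9 members were higher in each comparison, where 25.5% of all genes were higher in the mutant and 28.3% in the wild type. Atp6v0b was then read on 1416769_s_at, and Atp6v1d on 1416952_at. By that choice, genes at least as bright in cord as the dimmest member numbered 2251, of which 42.8% were higher in the mutant and 45.0% in the wild type.

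The size of the rise depended on how the arrays were scaled to each other. As deposited, the members' median log2 difference was 1.02 in SOD1-mutant motor neurons and 0.91 in wild-type motor neurons, against −0.13 and −0.10 over all genes. After quantile normalization it was 0.53 in the mutant and 0.43 in the wild type, against 0.25 and 0.27 over all genes. With each array centred on its median log2 value it was 1.87 in the mutant and 1.82 in the wild type, against 0.71 and 0.81 over all genes.

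Atp6v0b, Atp6v1a, Atp6v1b2, Atp6v1d, Atp6v1e1, Atp6v1h and Atp6v0e2 were called higher in both genotypes under all 3 scalings. Quantile normalization called 7 of 9 members higher in the mutant, where 39.0% of all genes were, and 8 of 9 in the wild type, where 42.2% were. Centring called all 9 higher in both, where 51.9% of all genes were higher in the mutant and 57.8% in the wild type. Atp6v0a1 changed direction, at −0.28 in the mutant and −0.15 in the wild type after quantile normalization, against 0.65 and 0.88 after centring. Quantile normalization called Atp6v0a1 lower in the mutant (limma adjusted p = 0.0387), and centring called it higher in the mutant (limma adjusted p = 0.0106) and in the wild type (limma adjusted p = 3.26e-05).

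**Figure D3:**
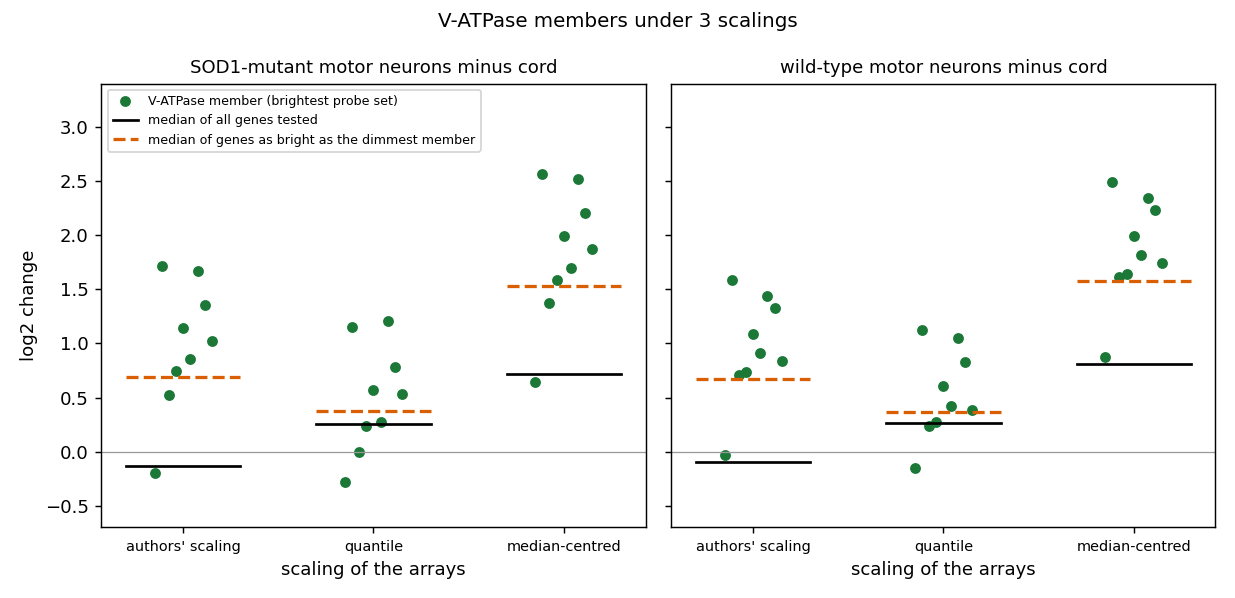
Log2 difference from wild-type cord of the 9 measured V-ATPase members on their brightest probe sets (green points) under 3 scalings of the arrays, for SOD1-mutant motor neurons (left) and wild-type motor neurons (right). Black lines are the median of all genes tested and dashed lines the median of genes at least as bright as the dimmest member, which is 0.69 in the mutant and 0.67 in the wild type as deposited.

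No difference between the genotypes was detected for these subunits. Of the 23 tested probe sets, 0 passed between SOD1-mutant and wild-type motor neurons with limma, and 0 had an unadjusted p under 0.05, where 0.222% of all probe sets and 0.254% of all genes passed and 15.2% of probe sets had an unadjusted p under 0.05. On the brightest probe sets the log2 differences ran from −0.19 for Atp6v0d1 to 0.23 for Atp6v1d, and all 9 of the 95% confidence intervals included 0. Those intervals reached from 0.712-fold to 1.41-fold, and a p that misses the threshold does not show that the genotypes are alike.

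The mutant and wild-type arrays did not overlap for Atp6v1d, higher in all 3 mutant arrays, or for Atp6v0d1, lower in all 3, each on its brightest probe set. Neither passed, with a limma adjusted p of 0.383 for Atp6v1d and 0.478 for Atp6v0d1, while 0.254% of all genes passed. How many of all genes separate without overlap was not counted, so the separation of these genes has no share to be read against. On 1416952_at Atp6v1d read the other way, averaging 45497 in SOD1-mutant and 53675 in wild-type motor neurons (log2 −0.25, limma adjusted p = 0.433). Over all 23 probe sets the intervals were wider, from 0.365-fold to 4.22-fold.

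**Figure D4:**
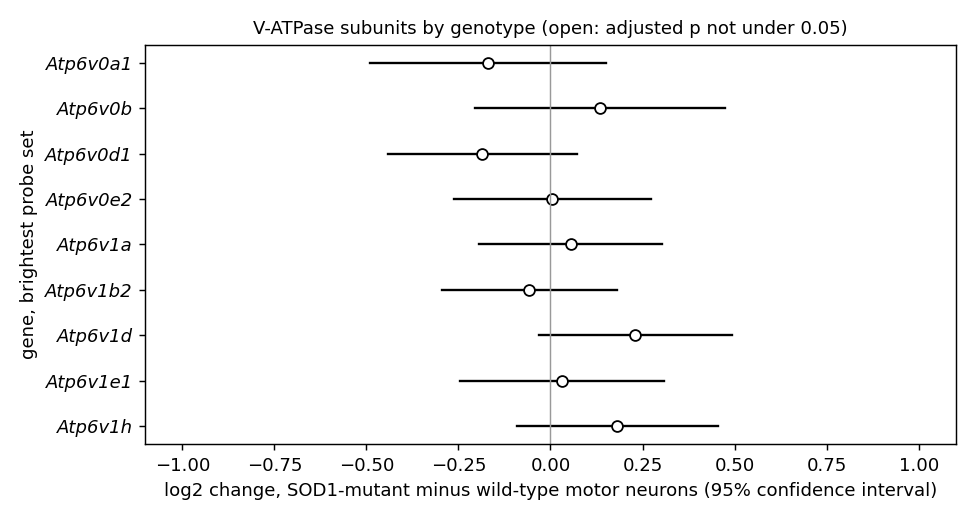
Log2 difference of SOD1-mutant minus wild-type motor neurons for the brightest probe set of each measured V-ATPase subunit, with 95% confidence intervals (limma, 3 arrays a group). All 9 intervals cross 0, and the points lie between −0.19 and 0.23.

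The rest of the pump was read from 15 further subunit and accessory genes, of which 14 had a probe set and 10 were tested. In SOD1-mutant motor neurons 6 were higher and 3 lower than cord, and in wild-type motor neurons 6 were higher and 2 lower. Over all genes 28.4% were higher and 35.3% lower in the mutant, and 31.1% higher and 36.1% lower in the wild type, while of genes at least as bright as Atp6v0a1 66.1% and 68.8% were higher. The median log2 difference of these 10 was 0.70 in the mutant and 0.57 in the wild type, where all genes had −0.13 and −0.10. Those higher in both on their brightest probe sets were the V1 subunits Atp6v1c1, Atp6v1f and Atp6v1g1, the V0 subunit Atp6v0e, and the accessory proteins Atp6ap1 and Atp6ap2. Atp6v1g1, the widely expressed G subunit of the peripheral stalk, averaged 101720 in SOD1-mutant motor neurons, 81222 in wild-type motor neurons and 27822 in cord (3 arrays each), a log2 difference of 1.87 ± 0.09 in the mutant and 1.54 ± 0.07 in the wild type. A less bright probe set of Atp6v1c1, a subunit that joins the V1 head to the stalks, went the other way. It was 1419544_at, at −0.68 in the mutant (limma adjusted p = 0.00401) and −0.59 in the wild type (limma adjusted p = 0.00175), against 1.48 and 1.45 on the brightest. Its remaining probe set, 1419546_at, was higher, at 1.23 in the mutant (limma adjusted p = 6.02e-05) and 1.18 in the wild type (limma adjusted p = 2.97e-05). On the brightest probe sets all 6 genes kept these calls under the other scalings, except Atp6v1f in the mutant after quantile normalization (0.20, limma adjusted p = 0.0895).

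Atp6v1g2, the neuronal form of the same subunit, went the other way. It read 6863, 6800 and 6905 in SOD1-mutant motor neurons, 9237, 8567 and 8677 in wild-type motor neurons, and 24592, 27683 and 26030 in cord. The groups did not overlap, and the gene was 3.79-fold lower than cord in the mutant (log2 −1.92 ± 0.10, limma adjusted p = 2.24e-06) and 2.95-fold lower in the wild type (−1.56 ± 0.08, limma adjusted p = 8.98e-07). Under all 3 scalings it remained lower, the smallest difference being −1.08 in the mutant and −0.65 in the wild type after centring. Atp6v1g2 rests on 1 probe set. A dimmer probe set of Atp6v1g1, 1423255_at, was also lower, at −0.40 in the mutant and −0.32 in the wild type. The dimmest of Atp6v1g1, 1450926_at, was higher in the wild type (1.77, limma adjusted p = 0.00615), with 1 of 3 cord arrays above background. In the mutant 1450926_at was not called (0.89, limma adjusted p = 0.145).

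Among the a subunit paralogues, Tcirg1, the a3 form best known from osteoclasts, read 746, 1691 and 1359 in SOD1-mutant motor neurons, 1199, 1607 and 1598 in wild-type motor neurons, and 2517, 2688 and 2694 in cord. It was lower in the mutant (−1.12, limma adjusted p = 0.00792) and in the wild type (−0.85, limma adjusted p = 0.00156), but passed under neither other scaling. Atp6v0a2, the a2 form of the Golgi and endosomes, was −0.52 below cord in the mutant (limma adjusted p = 0.036) and −0.09 in the wild type (limma adjusted p = 0.448) on its brightest probe set, a mutant call that was lost under both other scalings. Its dimmer 1424513_at averaged 407 in SOD1-mutant motor neurons, 103 in wild-type motor neurons and 2029 in cord, with 1 of 3 wild-type motor neuron arrays above background. There it was lower in both genotypes (limma adjusted p = 5.89e-05 in the mutant and 0.000375 in the wild type). The kidney B subunit gene Atp6v1b1 was above background on no array. Atp6v0a4, Atp6v0d2 and Atp6v1c2 also fell below the filter.

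**Figure D5:**
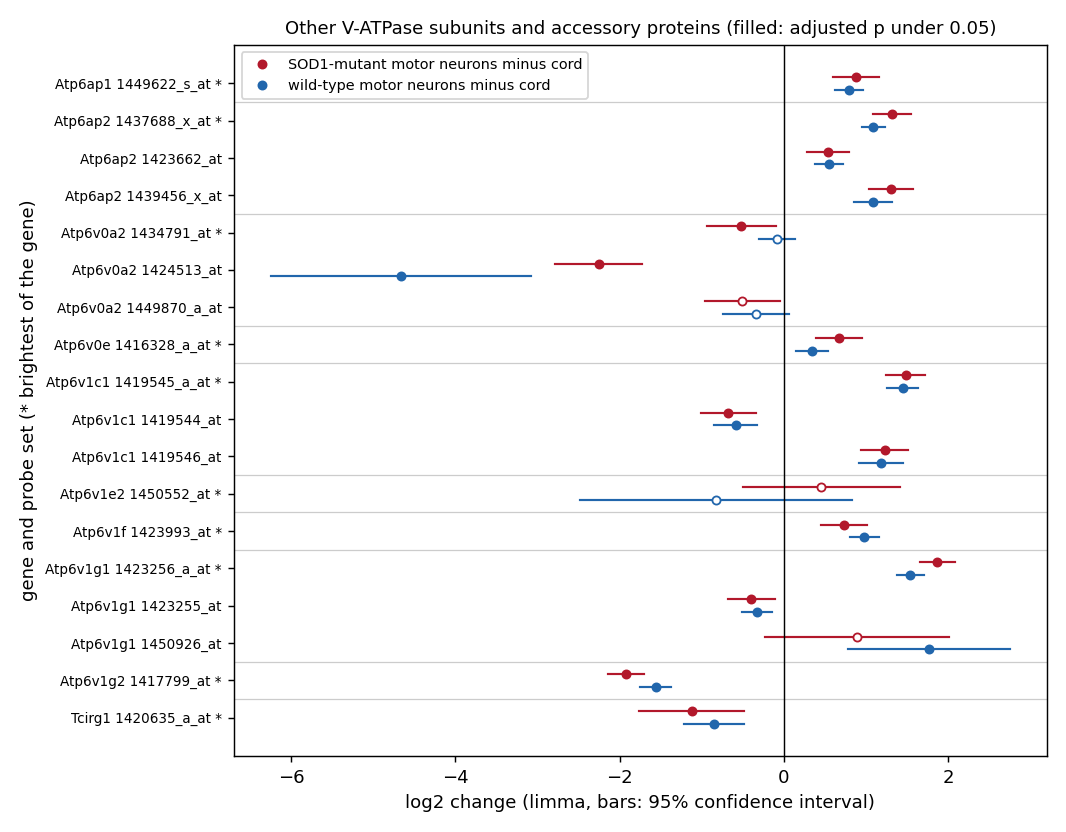
Log2 difference from wild-type cord of every tested probe set of the other V-ATPase subunit and accessory genes, with 95% confidence intervals (limma), SOD1-mutant motor neurons in red above wild-type motor neurons in blue, filled where the adjusted p was under 0.05. The brightest probe sets of Atp6v1c1 and Atp6v1g1 lie far right of 0, and Atp6v1g2 lies left of it at −1.92 and −1.56.

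Genes that assemble, regulate or work beside the pump were counted on their brightest probe sets, to be read against the same 28.4% of all genes higher and 35.3% lower in the mutant, and 31.1% and 36.1% in the wild type. Of 12 assembly and regulatory factors tested, 8 were higher and 2 lower than cord in SOD1-mutant motor neurons, and 9 were higher and 2 lower in wild-type motor neurons. Genes at least as bright as Atp6v0a1 had 66.1% and 68.8% higher, but the lists were not matched to them on brightness and nothing particular to a list was tested. After quantile normalization 7 of the 12 were higher in each genotype, where 39.0% of all genes were higher in the mutant and 42.2% in the wild type. Of genes at least as bright as Atp6v0a1, 53.0% and 56.5% were higher at that scaling. Dmxl2, a rabconnectin that promotes V1 and V0 assembly on synaptic vesicles, was 1.33 above cord in the mutant and 1.31 in the wild type (log2). Meak7, of the TLDc domain proteins that bind the pump, was 1.19 above cord in the mutant and 1.5 in the wild type, and Ncoa7, of the same kind, was 1.42 above cord in the mutant and 1.11 in the wild type. Rogdi, which belongs to the same rabconnectin complex, was lower, at −1.62 in the mutant and −1.31 in the wild type, although centring gave −0.40 (limma adjusted p = 0.158) in the wild type.

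Chloride entry through CLC exchangers balances the charge that the pump moves. Of 6 tested genes of such exchangers and their partner protein, 3 were higher and 0 lower than cord in SOD1-mutant motor neurons, and 3 were higher and 1 lower in wild-type motor neurons. The 3 were Clcn5, an endosomal exchanger (2.07 in the mutant and 2.12 in the wild type), Ostm1, the partner protein of the lysosomal exchanger (1.93 and 1.86), and Clcn3 (1.25 and 1.05), all higher under the 3 scalings on these probe sets. The direction of Clcn3, an exchanger of endosomes and synaptic vesicles, depended on the probe set. Its 1433487_at was lower in the mutant (−1.54, limma adjusted p = 0.000164) and in the wild type (−1.34, limma adjusted p = 5.84e-06), and its dim 1441248_at was also lower in both (−0.90 and −1.01). Probe set 1416610_a_at of Clcn3 was higher in the mutant (0.63, limma adjusted p = 0.00265) and in the wild type (0.81, limma adjusted p = 8.24e-05). On 1433486_at the gene was higher in the mutant (0.55, limma adjusted p = 0.0104) and not called in the wild type (0.11, limma adjusted p = 0.278). The Ragulator and Rag proteins, which tie the pump to mTORC1 on the lysosome, were counted together with Slc38a9, Mtor and Rptor. Of these 11 tested genes, 7 were higher and 2 lower in the mutant, and 8 were higher and 2 lower in the wild type. Lamtor5 (1.72 in the mutant and 1.52 in the wild type) and Lamtor3 (1.39 and 1.43) rose, and Lamtor4 fell (−1.40 in the mutant and −1.14 in the wild type, where centring gave −0.23 and no call).

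The vesicular transporters that spend the proton gradient did not move together. Of 5 tested, 1 was higher and 1 lower than cord in SOD1-mutant motor neurons, and 1 was higher and 2 lower in wild-type motor neurons. Slc18a3, the acetylcholine transporter, was higher (1.51 in the mutant and 2.03 in the wild type), and Slc17a6, a glutamate transporter, was lower (−2.81 and −3.55). Slc32a1, the GABA and glycine transporter, was lower in the wild type (−0.75) and not called after centring.

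Tfeb, the gene of transcription factor EB, belongs to a family of which 2 of 3 tested genes were lower and 0 higher than cord in each genotype. Of all genes 35.3% were lower in the mutant and 36.1% in the wild type. After quantile normalization 1 of the 3 was lower in the mutant and 0 in the wild type, where 24.6% and 26.2% of all genes were. After centring 1 was lower in the mutant and 0 in the wild type, where 14.5% and 15.3% of all genes were. Centring also called 1 of the 3 higher in the wild type, where 57.8% of all genes were. Tfeb read 191, 117 and 292 in SOD1-mutant motor neurons, 576, 837 and 374 in wild-type motor neurons, and 1293, 1349 and 1504 in cord, with 2 of the 3 mutant arrays above background. The difference was −2.75 in the mutant (limma adjusted p = 0.000186) and −1.26 in the wild type (limma adjusted p = 0.00471). The wild-type call was lost after quantile normalization (−0.37, limma adjusted p = 0.283) and after centring (−0.35, limma adjusted p = 0.313). Its relative Mitf was also lower (−0.88 in the mutant and −0.83 in the wild type), but passed in neither genotype under the other scalings. None of the genes in these lists passed between SOD1-mutant and wild-type motor neurons, Tfeb included (−1.49, limma adjusted p = 0.185).

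The arrays differed between captured cells and whole cord in other ways, along the same split as the subunits. The log2 ratio of the 3′ to the 5′ control probe set of Gapdh lay between 4.33 and 4.63 in SOD1-mutant motor neurons, between 3.65 and 4.52 in wild-type motor neurons and between −0.29 and −0.26 in cord. An array's median signal lay between 274 and 366 in SOD1-mutant motor neurons, between 269 and 313 in wild-type motor neurons and between 556 and 583 in cord, on arrays with a common trimmed mean of 2500. The part of either in the subunits' values, and in the disagreement between probe sets of one gene, was not tested.

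The makeup of the samples differed as well. The 8 motor neuron markers summed to between 258635 and 272301 in SOD1-mutant motor neurons, between 281783 and 295047 in wild-type motor neurons and between 18411 and 28521 in cord, and 7 of 8 were higher than cord in each genotype. Chat, which makes acetylcholine, was the marker that did not pass, and Slc18a3, Isl1 and Mnx1 did. All 9 microglial markers were lower, with sums between 4329 and 5029 in SOD1-mutant motor neurons, between 3385 and 3975 in wild-type motor neurons and between 48056 and 51877 in cord, and with Aif1 below background in both captured groups. Astrocyte markers summed to between 86961 and 90800 in SOD1-mutant motor neurons, between 72717 and 85095 in wild-type motor neurons and between 261566 and 292403 in cord, and all 7 were lower.

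Myelin markers were still bright in captured cells, with sums between 291721 and 318712 in SOD1-mutant motor neurons, between 249904 and 261894 in wild-type motor neurons and between 511245 and 602991 in cord. Of the 7 measured, 6 were lower than cord in the mutant and 7 in the wild type. Of the vascular markers 7 of 7 tested were lower in each genotype, and of the interneuron markers 6 of 7 in the mutant and 7 of 7 in the wild type. The part of other cell types in the subunits' values was not tested, and in such pooled samples fewer cells of a type and less RNA per cell cannot be told apart. Sod1 on its brightest probe set read 84714, 131987 and 120343 in SOD1-mutant motor neurons, 96983, 101356 and 101398 in wild-type motor neurons, and 48032, 49249 and 45081 in cord, which does not check the genotype, since the labels name no allele.

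Across the 9 arrays the subunits followed one another, apart from Atp6v0a1. Each of the 8 others had a Pearson r of 0.936 to 0.99 with the mean standardised profile of the members, and Atp6v0a1 had −0.379. The non-member genes most like that profile were Cisd1 (r = 0.9997), Polr2g (0.998), Eif3c (0.9978), Dnajc8 (0.9977) and Cmas (0.9976). Those correlations mostly restate the split between 6 captured arrays and 3 cord arrays, and 17.1% of 12974 genes had an r above 0.9.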

How the data were processed

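Probe set values were used as deposited by the authors, as intensity on a linear scale for 9 arrays. The trimmed mean, without 2% of probe sets at either end, is 2500 on all 9, so a common scaling precedes the deposit. No source used here names the software, the capture or the amplification. The arrays hold 45101 probe sets. Without 64 controls, 27022 with a mean log2 signal above the 40th percentile were tested. The platform annotation names 1 gene for 34945 probe sets and several for 932, and leaves 9160 unnamed.

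Groups came from the sample descriptions. Each comparison was fitted on its 6 arrays with limma 3.58.1 in R 4.3.3 (lmFit, eBayes with an intensity trend) on log2(signal + 20.3), the added value being the 10th percentile of all signals, with Benjamini-Hochberg adjustment over all tested probe sets. Only 3 arrays a group limit the precision. An array's background level was the 95th percentile of 27 Bacillus subtilis control probe sets. Where a group had no array above it, the fold is at least that of the bright group's mean log2 value over the dim group's mean of the higher of background and own signal. On simulated data with 200 of 27022 probe sets changed, 24% of log2 changes of 1 and 68% of changes of 2 were recovered between genotypes. Against cord the recovery was 31% and 72% in the mutant, and 39% and 73% in the wild type, with 6 to 9 false calls a comparison. In the data 62.1% of tested probe sets passed against cord in the mutant and 65.5% in the wild type. The simulation changed far fewer, so its recovery against cord does not describe those comparisons. Its changed probe sets were drawn from all tested ones, dim and bright alike. The recovery between genotypes is therefore not that of the members' bright probe sets, which was not simulated.

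The members, the pathway and marker lists and the tests were chosen with earlier results of these data known. The genes named are all members with every probe set, the other V-ATPase genes past the threshold, up to 3 passing genes of largest change in each comparison with cord from each pathway list, 5 label checks and the 5 genes of most similar profile. Promoter windows are those of RefSeq on GRCm38.p6. Plots used matplotlib 3.10.9 under Python 3.11.15. Alternatives were quantile normalization, median centring, no filter or one at the 60th percentile, an added value larger or smaller by 4 times, 1 fit of all 9 arrays, eBayes without a trend, values raised to background, the mean over probe sets of a gene, the replicate number as a block, leaving out each array, and, added after the data were seen, the probe set brightest in cord.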

Additional observations from a re-analysis of the deposited data

How the results depend on the processing

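The counts of members higher than cord on brightest probe sets stayed at 8 of 9 without each array in turn, and member probe sets called higher ranged from 13 to 15 in SOD1-mutant motor neurons and from 12 to 15 in wild-type motor neurons, with 2 lower in each and 0 between genotypes. With no array left out, 21.9% of all tested probe sets were higher in the mutant and 24.0% in the wild type. Centring gave 20 member probe sets higher in the mutant and 1 lower in the wild type. Of all tested probe sets 42.9% were then higher in the mutant and 19.5% lower in the wild type. Quantile normalization gave 4 probe sets and 1 gene, Atp6v0a1, lower in the mutant, where 27.3% of all probe sets and 24.6% of all genes were lower. The filter at the 60th percentile left 18 member probe sets, with 1 lower in each comparison with cord. No share over all probe sets is given for the fits without an array, that filter or the replicate block. Single genes turned direction under centring (Atp6v0a1, 0.65 in the mutant and 0.88 in the wild type), under quantile normalization (Atp6v0d1, −0.005 in the mutant), on the mean over probe sets of a gene (Atp6v1b2, −0.29 in the mutant, adjusted p = 0.0359, and −0.36 in the wild type, adjusted p = 0.102, limma) and on the probe set brightest in cord (Atp6v0b, −0.01 in the mutant). On the mean of its probe sets Atp6v0a1 was lower, at −1.05 in the mutant and −1.0 in the wild type. The cause of these changes was not tested. The other 142 recomputed counts kept within 1.5 times of the reported ones.

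Whether the labels' replicate numbers pair the arrays was not settled. Against cord, the deviations of same-numbered arrays correlated at −0.044 to 0.031. Between the 2 motor neuron groups they correlated at 0.145 for number 1, 0.171 for number 2 and 0.002 for number 3. Arrays of different number in those groups had −0.185 to 0.063, the highest being SOD1-mutant array 3 with wild-type array 1. With the replicate block, 14 member probe sets were higher and 2 lower in the mutant, 16 higher and 2 lower in the wild type, and 0 passed between genotypes. Signal near background limits the dim probe sets, of which 2 member probe sets were not tested.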
